A study of Homo sapiens with 12 samples.

Results

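Fibronectin and 9 other genes for secreted glycoproteins of the extracellular matrix (FN1, DCN, SPARC, TNC, POSTN, FBLN1, CCDC80, THBS1, CPXM1 and MEGF6) were followed in a kidney cancer line and in a derivative of it that resists the drug cabozantinib. The 10 genes were taken by symbol from 20114 gene symbols in the deposited RNA tables. They were chosen by their RNA values in these same libraries, so their differences between the lines are given as a description, with no test. For FN1 the peaks of the histone mark H3K27ac were also read, in a window of 250 kb. The mark is placed on nucleosomes at promoters and enhancers in use.

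Cabozantinib-resistant Caki-1 cells had been grown in McCoy's medium with 5 µM cabozantinib, raised to 20 µM over 2 months, and were afterwards cultured with 10 µM of the drug. Parental Caki-1 cells, an established human renal cell carcinoma line labelled wild-type, were maintained in RPMI medium. Cabozantinib inhibits receptor tyrosine kinases that include MET, AXL and the VEGF receptors. Drug exposure, selection and medium differ together between the lines and cannot be told apart. The labels do not say whether the resistant line is a clone. RNA and H3K27ac were each measured in 2 resistant and 2 parental libraries, and in paired values below replicate 1 is given before replicate 2.

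Matrix glycoproteins are secreted and then bind each other, collagens and cell-surface receptors. Fibronectin is a dimer that cells stretch into fibrils through integrins, mainly the pair of ITGA5 and ITGB1. Matricellular proteins such as thrombospondin-1, SPARC, tenascin-C and periostin are thought to modulate adhesion and growth factor signals more than to carry load. In a kidney tumour much of this matrix is made by stromal fibroblasts, while a cell line has only what the carcinoma cells themselves transcribe.

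Estimated counts summed to 14664723 and 12851393 in resistant RNA libraries and to 10605113 and 10584083 in parental ones. The resistant pair differed far more than the parental pair, with a chi-square statistic per gene of 48.4 in the resistant pair and 1.95 in the parental pair, where 1 is expected from counting alone. Whether replicates were separate cultures is not stated, so p-values measure only the spread between these libraries, which may be technical. Of 9 tubule and carcinoma markers, PAX8, KRT8, KRT18 and VIM were well above 0 in both lines, with PAX8 at 133 and 133 TPM (a level scaled to transcript length and library total) in resistant libraries and 210.2 and 205 TPM in parental libraries, while PAX2 was at 0 in all 4. EPCAM reached at most 2.36 TPM and CA9 at most 0.90 TPM. CDH16, a kidney cadherin, was the marker of the 9 that edgeR called, higher at 7.64 and 9.41 TPM in resistant libraries against 2.22 and 3.64 TPM in parental libraries. The 6 fibroblast markers summed to 7.88 and 9.53 TPM in resistant libraries and 16.2 and 16.7 TPM in parental libraries. Of these markers COL1A2, COL3A1 and PDGFRA never exceeded 0.12 TPM, the 4 endothelial markers analysed never exceeded 0.04 TPM, and of 5 blood markers CD14 was the highest at up to 1.91 TPM. The 5 markers of smooth muscle and pericytes summed to 49.5 and 41.3 TPM in resistant libraries and 47.1 and 49.8 TPM in parental libraries, most of it ACTA2. Among them RGS5, a pericyte marker, was called lower by edgeR, at 3.53 and 1.89 TPM in resistant libraries against 8.57 and 11.32 TPM in parental libraries. COL1A1, PDGFRB and LUM, the fibroblast markers fitted, did not pass. The fibroblast sum and RGS5 moved with the matrix genes described below, and their part in those differences was not tested. COL1A1 and LUM are themselves among the matrix genes listed below.

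Of the 10 genes, 9 had enough counts to enter the fit across all genes and 1, POSTN, did not. Levels of 7 of the 9 were lower in both resistant libraries than in both parental ones, FBLN1 was higher in both, and the ranges of TNC overlapped. Among all 12792 genes fitted, 29.7% had both resistant libraries below both parental ones and 30.9% had them above. By 2-fold or more 6 of the 9 were lower and 1 was higher, against 4.82% lower and 4.77% higher of all genes. The choice of the genes fixed these counts, and nothing is read from them. Calls of edgeR's quasi-likelihood test are not given for the 10 genes. Over all fitted genes that test called 3.41% lower and 2.96% higher at an adjusted p under 0.05.

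**Figure D1:**
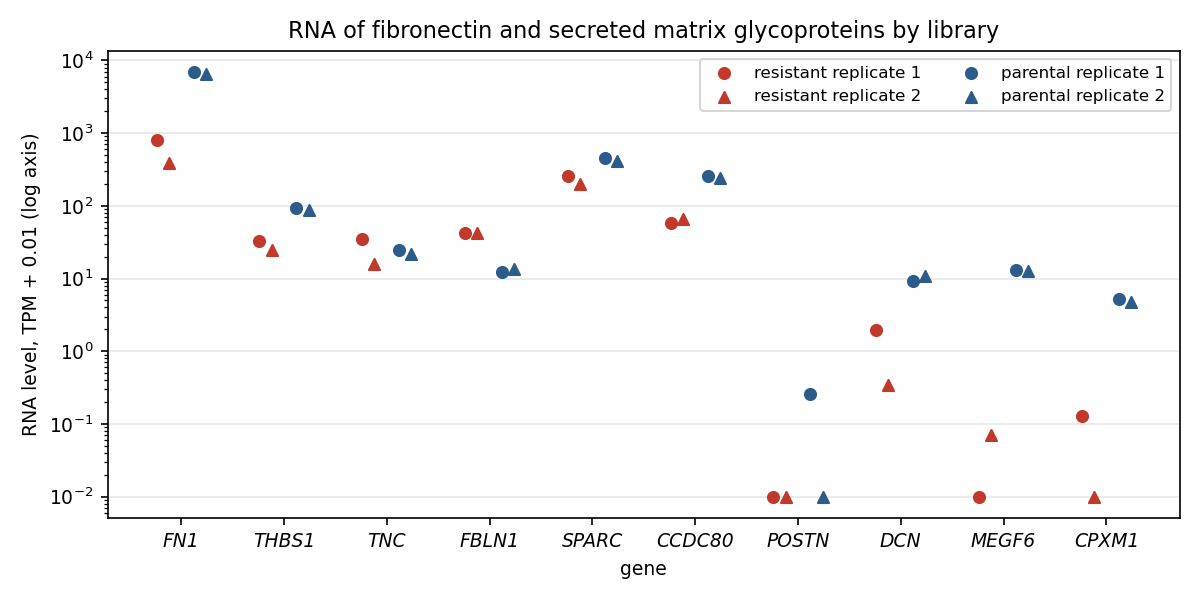
RNA level of each gene (y axis, TPM + 0.01 on a log axis) in the 4 libraries, resistant in red left of parental in blue, circles for replicate 1 and triangles for replicate 2. FN1 had the highest level of the 10 genes in every library, POSTN lay at or near 0, and FBLN1 was the gene with both resistant points above both parental ones.

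FN1 was the most abundant of the 10 transcripts in every library. It stood at 817 and 388 TPM in resistant libraries, against 6942 and 6599 TPM in parental libraries. Ranked by TPM among all 20114 symbols, FN1 was 162 and 309 in resistant libraries and 16 and 18 in parental libraries. The lines did not overlap, and the resistant pair was itself 2.03-fold apart in read counts scaled to library size (CPM), while the parental pair was 1.04-fold apart. On the CPM scale FN1 was lower in the resistant line by a log2 fold change of -3.54 ± 0.36 (SE), 11.6-fold. Each SE given here is the size of the log2 fold change divided by the square root of edgeR's F statistic. It uses a spread shared by both lines, not that of each pair. Without resistant replicate 1 the log2 fold change was -4.14, and without resistant replicate 2 it was -3.13. With fewer FN1 molecules in a bulk culture, fewer cells that make it and less RNA in each cell cannot be told apart.

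FN1 set most of the summed RNA of the group. The 10 genes together amounted to 1240 and 739 TPM in resistant libraries, against 7812 and 7413 TPM in parental libraries. FN1 held 65.8% and 52.5% of that sum in resistant libraries and 88.9% and 89.0% in parental libraries. Without FN1 the other 9 genes summed to 424 and 351 TPM in resistant libraries, against 870.3 and 813 TPM in parental libraries. The sum of the other 9 was thus lower too, by a smaller factor than fibronectin. Single genes among them differed from that sum in size and direction, as given below. In RefSeq's gene table FN1 overlaps ATIC and the non-coding gene FN1-DT, and the use of strand in counting is not given in the sources used here, so reads in the overlaps are uncertain.

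FBLN1, fibulin-1, is a calcium-binding glycoprotein of EGF-like repeats that binds fibronectin. It was the 1 gene of the group that ran the other way. Its level was 42.3 and 42.4 TPM in resistant libraries and 12.4 and 13.7 TPM in parental libraries, with no overlap. On the CPM scale the log2 fold change was 1.80 ± 0.21 (SE), a level 3.49-fold higher in the resistant line. The TPM of FN1 was thus 19.3 and 9.15 times that of FBLN1 in resistant libraries, against 562 and 481 times in parental libraries.

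Promoter sequences are shown for FN1, for FBLN1, which ran opposite to it, and for MEGF6 and CPXM1, which were near 0 in the resistant line. Each run is the 250 bases before the annotated start, 5′ to 3′ on the gene's strand, from RefSeq on build GRCh38.p14, a different build from that of the peaks. Capitals mark letters of the motifs named below.
FN1: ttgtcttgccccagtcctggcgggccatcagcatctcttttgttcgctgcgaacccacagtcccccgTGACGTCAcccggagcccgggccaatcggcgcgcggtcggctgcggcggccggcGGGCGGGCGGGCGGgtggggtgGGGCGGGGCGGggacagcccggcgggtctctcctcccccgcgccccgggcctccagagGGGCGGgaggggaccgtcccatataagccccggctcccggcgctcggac
FBLN1: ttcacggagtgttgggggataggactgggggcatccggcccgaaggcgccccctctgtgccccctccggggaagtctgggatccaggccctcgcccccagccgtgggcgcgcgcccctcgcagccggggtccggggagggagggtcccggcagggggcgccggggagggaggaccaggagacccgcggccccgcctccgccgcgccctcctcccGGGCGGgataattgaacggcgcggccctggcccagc
MEGF6: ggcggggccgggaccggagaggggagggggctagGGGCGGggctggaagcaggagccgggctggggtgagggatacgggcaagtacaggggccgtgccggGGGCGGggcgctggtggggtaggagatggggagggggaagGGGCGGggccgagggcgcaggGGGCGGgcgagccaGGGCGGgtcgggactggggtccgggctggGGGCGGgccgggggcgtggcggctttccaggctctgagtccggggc
CPXM1: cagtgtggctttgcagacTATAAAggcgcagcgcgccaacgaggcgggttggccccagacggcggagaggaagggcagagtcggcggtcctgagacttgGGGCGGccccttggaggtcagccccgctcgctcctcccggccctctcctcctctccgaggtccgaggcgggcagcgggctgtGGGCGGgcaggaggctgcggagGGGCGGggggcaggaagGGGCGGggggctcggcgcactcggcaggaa

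These runs are at chr2:215436069-215436318, minus strand (FN1), chr22:45502633-45502882, plus strand (FBLN1), chr1:3611509-3611758, minus strand (MEGF6), and chr20:2800628-2800877, minus strand (CPXM1). Of the 10 genes, 9 matched the RefSeq promoter table and DCN did not. Both strands of 300 bases, from 250 before to 50 after the start, were searched for each motif. The cyclic AMP response element TGACGTCA was found in FN1 alone of the 9, with its leftmost base at -183, and in 1.85% of 35116 promoters. The SP1 box GGGCGG was found in 6 of 9 genes and 45.0% of all promoters, with 6 matches each in FN1 and MEGF6, some of which overlap each other in FN1. The AP-1 motif TGANTCA was found in POSTN alone of the 9, against 7.71% of all promoters, and TATAAA in POSTN and CPXM1, against 11.5%. The TEAD motif GGAATG was found in SPARC and THBS1, against 14.0% of all promoters. The SMAD motif CAGACA was found in CCDC80 and TNC (16.9% of all), ACGTG, a core of hypoxia response elements, in CCDC80 (21.4%), and the E-box CACCTG in none of the 9 (20.6%). A match is only a run of letters, and no binding was measured here.

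Among the matricellular genes, THBS1 and SPARC were lower in both resistant libraries, TNC was not separated and POSTN was barely detected. Thrombospondin-1, from THBS1, is a trimer that binds the receptor CD47 and can release latent TGF-beta. THBS1 stood at 32.4 and 24.6 TPM in resistant libraries, against 94.8 and 88.4 TPM in parental libraries. On the CPM scale both lines had close replicates, with 180 and 168 CPM in resistant libraries against 557 and 524 CPM in parental libraries. The log2 fold change was -1.64 ± 0.14 (SE), 3.11-fold lower in the resistant line.

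SPARC, a collagen-binding matricellular protein also called osteonectin, was the member after FN1 in abundance. It stood at 254 and 203 TPM in resistant libraries, against 454 and 416 TPM in parental libraries. Its log2 fold change on the CPM scale was -0.85 ± 0.15 (SE), 1.80-fold lower in the resistant line. SPARC was thus the smallest of the 7 differences in the lower direction, and the libraries of the lines still did not overlap.

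TNC encodes tenascin-C, a large matricellular protein of wound edges and tumour stroma. It stood at 35.5 and 15.9 TPM in resistant libraries, against 24.9 and 21.5 TPM in parental libraries. Resistant replicate 1 lay above both parental libraries and resistant replicate 2 below both. The log2 fold change was 0.08 ± 0.31 (SE) on the CPM scale, 0.47 without resistant replicate 2 and -0.48 without resistant replicate 1, so its direction was set by the library used. POSTN, periostin, had 0 and 0 counts in resistant libraries and 4 and 0 counts in parental libraries. A count of 0 over the resistant pair allows a level of up to 0.106 CPM, with 3 counts as the limit, and a difference was not detectable at this depth.

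**Figure D2:**
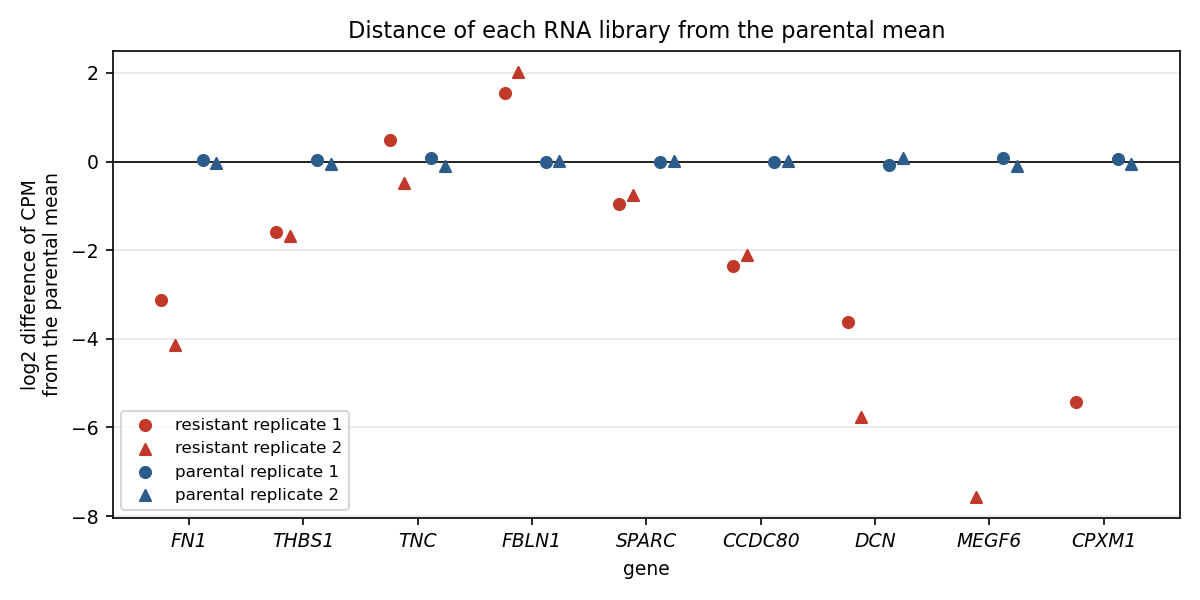
Log2 difference of each library's CPM from the mean of the parental pair (y axis) for the 9 genes fitted, resistant in red and parental in blue. The resistant replicates of THBS1, SPARC and CCDC80 lie close together, those of FN1, DCN and TNC lie apart, and libraries at 0 counts (MEGF6 in resistant replicate 1, CPXM1 in resistant replicate 2) are not drawn.

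CCDC80, a secreted protein that binds matrix and cell surfaces, was the third most abundant of the group in parental cells. It stood at 57.5 and 65.2 TPM in resistant libraries, against 256.5 and 245 TPM in parental libraries. The log2 fold change on the CPM scale was -2.23 ± 0.16 (SE), 4.69-fold lower in the resistant line. Its resistant replicates differed by less than those of FN1, at 139 and 166 CPM.

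DCN, decorin, is a small leucine-rich proteoglycan that binds collagen fibrils and TGF-beta. It stood at 1.92 and 0.33 TPM in resistant libraries, against 9.23 and 10.98 TPM in parental libraries. These levels rest on 16 and 3 counts in resistant libraries and 123 and 137 counts in parental libraries. The log2 fold change was -4.24 ± 0.50 (SE) on the CPM scale, -5.69 without resistant replicate 1 and -3.60 without resistant replicate 2. The groups did not overlap, but the size of the difference is known only roughly from so few counts.

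MEGF6, a secreted protein of many EGF-like repeats, and CPXM1, a secreted member of the carboxypeptidase family, were almost absent from the resistant libraries. MEGF6 had 0 and 3 counts in resistant libraries and 479 and 426 counts in parental libraries. Its ratio of parental over resistant CPM was 415, with an exact 95% binomial interval of 142 to 2018. Without resistant replicate 1 that ratio was 189 (64.3 to 916), and without resistant replicate 2 the parental level was at least 227-fold higher, against a limit of 3 counts in the library kept. CPXM1 had 3 and 0 counts in resistant libraries and 89 and 83 counts in parental libraries, and its ratio of parental over resistant CPM was 78.9, with an interval of 26.6 to 386. Without resistant replicate 2 it was 43.1 (14.5 to 211), and without resistant replicate 1 the parental level was at least 35.9-fold higher, against the same limit. The intervals and limits cover counting error only.

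The peaks of H3K27ac around FN1 are an assay that did not choose the genes. All peaks in a window of 250 kb of hg19 chromosome 2 were taken from each library's list, the outermost of which began at 216175913 and ended at 216397350. The lists hold 1 score per peak, whose meaning is not given in the sources used here and which is given only to describe a peak within its own list. The window held 15 and 13 peaks in resistant libraries, against 33 and 38 peaks in parental libraries. Peaks covered 9699 and 15289 bases of the window in resistant libraries, against 28989 and 67439 bases in parental libraries. The 2 lines did not overlap in either measure.

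The lists differ in how much of the genome they cover, so the window was set against the whole. All peaks covered 46.0 and 86.8 Mb in resistant libraries, against 56.3 and 84.9 Mb in parental libraries, with mean widths of 878 and 1643 bases in resistant libraries and 1028 and 1465 bases in parental libraries. Per Mb of covered genome, the FN1 window held 211 and 176 bases under peaks in resistant libraries, against 515 and 794 bases in parental libraries. Between replicates 1 the covered length of the window was 2.99-fold smaller in the resistant line, where that of the whole list was 1.23-fold smaller. Between replicates 2 it was 4.41-fold smaller, where the whole lists had a ratio of parental to resistant length of 0.978. Libraries of the same number are not known to be pairs, and other pairings of the lists give other ratios.

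**Figure D3:**
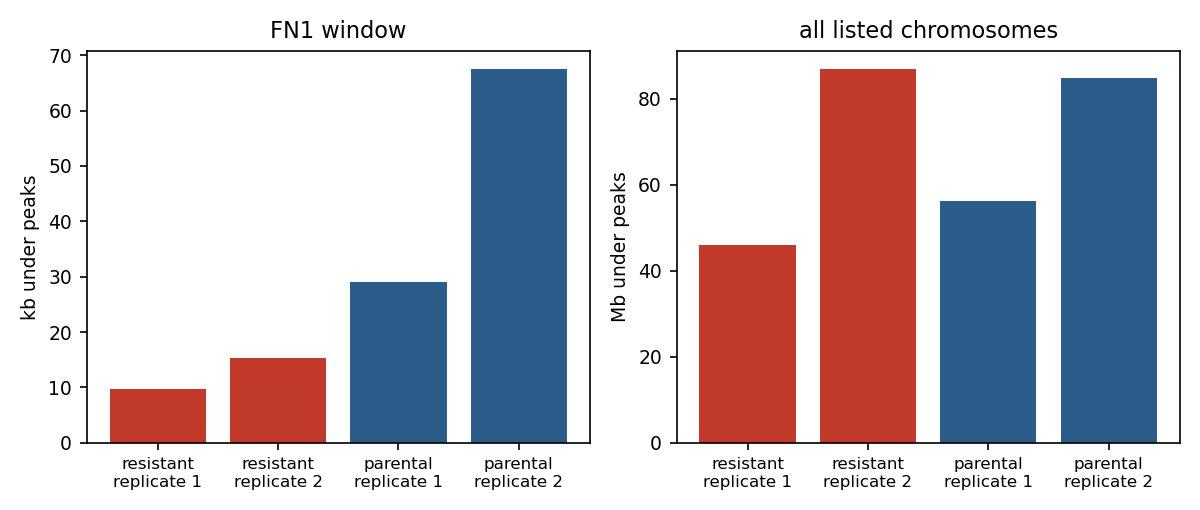
Length under H3K27ac peaks in the FN1 window (left, kb) and over all listed chromosomes (right, Mb), 1 bar per library, resistant in red left of parental in blue. Both resistant bars are below both parental bars in the window (9.70 and 15.3 kb against 29.0 and 67.4 kb), while over all chromosomes the lines overlap.

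Peaks that overlapped by at least 1 base in any list were merged into regions. The window held 41 of 89076 regions. Of these 41, 10 and 11 had a peak in resistant libraries, against 24 and 37 in parental libraries. Of all 89076, 39631 and 49035 had a peak in resistant libraries, against 42145 and 52291 in parental libraries. A region was called lost when both parental and neither resistant library had a peak, and gained in the reverse case. In the FN1 window 11 regions (26.8%) were lost and 0 were gained, where 3.92% of all regions were lost and 3.43% gained. Regions in 1 window share their locus and are not independent of each other, and with 2 lists a line no exact test could reach 0.05. Of the other 30 regions, 5 had a peak in all 4 libraries, 14 in 1 parental library only, 6 in both parental and 1 resistant library, 3 in 1 library of each line, and 2 in 1 resistant library only.

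The widest region of the window lay at chr2:216290310-216303532 and had peaks in all 4 libraries. Resistant replicate 1 had 4 peaks there that covered 1987 bases, the widest of 826 bases. Resistant replicate 2 had 2 peaks that covered 4541 bases, the widest of 4073 bases, which was the widest of that list in the window. Parental replicate 1 had 4 peaks that covered 8317 bases, the widest of 6224 bases. Parental replicate 2 had 1 peak of 13223 bases, wider than 99.8% of the peaks in its own list. The share of the region under peaks was thus 15% and 34.3% in resistant libraries, against 62.9% and 100% in parental libraries. The stretches at chr2:216299341-216299906, chr2:216300369-216300679 and chr2:216301090-216301833 lay under a peak in all 4 lists. The start of FN1 was not placed on these coordinates, since the gene table used here is on another build.

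**Figure D4:**
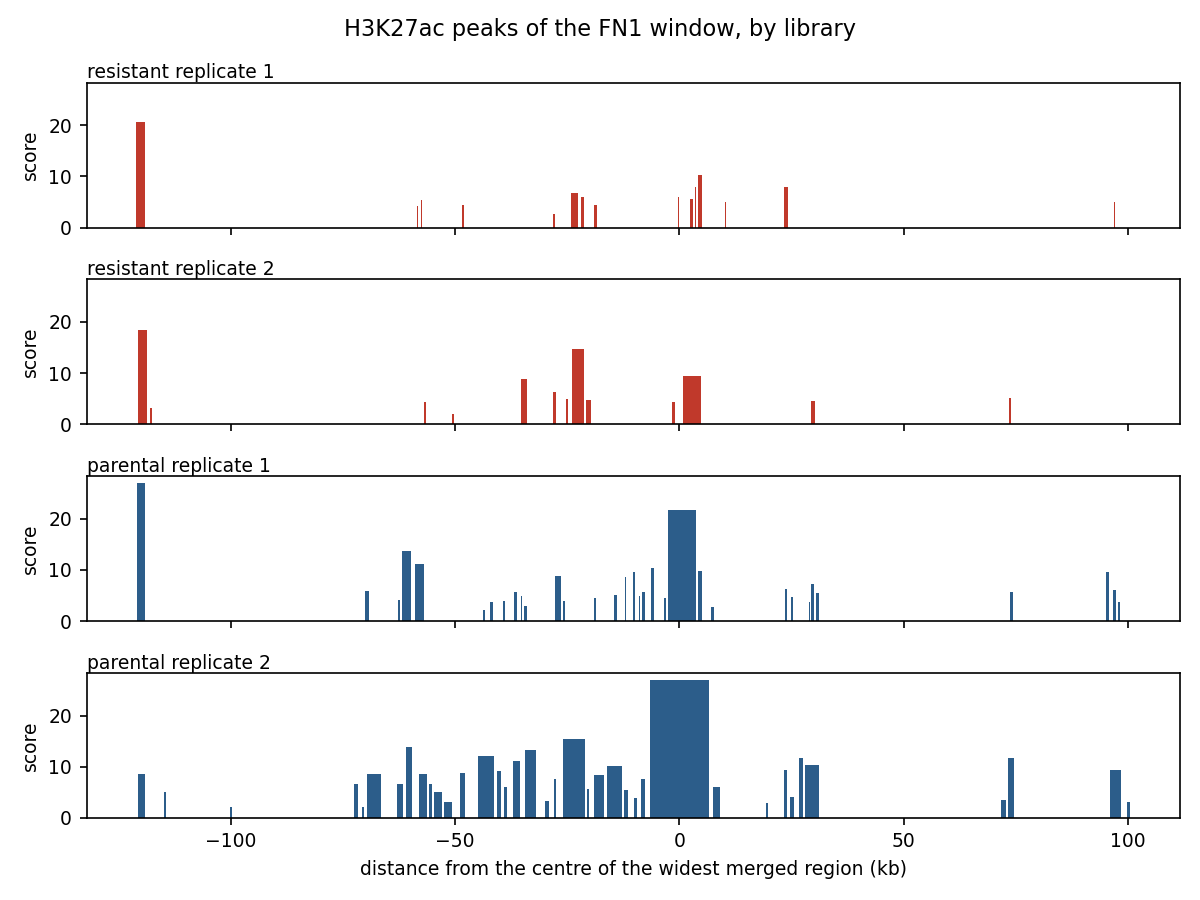
H3K27ac peaks of the FN1 window in each library, resistant above parental, drawn from start to end with the deposited score as height. The x axis is the distance in kb from the centre of the widest region, and heights are not to be compared between lists. At the centre the widest peak is 826 and 4073 bases in resistant libraries and 6224 and 13223 bases in parental libraries.

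Outside that region the difference remained in the same direction, with 7712 and 10748 bases under peaks in resistant libraries, against 20672 and 54216 bases in parental libraries. Among the lost regions, chr2:216234034-216237248 held the peak with the highest score in each parental list, at 13.7 and 13.9. Of the 11 lost regions 10 lay between 216226769 and 216306036 and 1, chr2:216321669-216322447, beyond that. The other regions present in all 4 lists were chr2:216175913-216178245, chr2:216238002-216240737, chr2:216268821-216270451 and chr2:216270879-216275803. The leftmost of these had 2007 and 2073 bases under peaks in resistant libraries, against 1903 and 1433 in parental libraries. There the resistant lists were the longer ones, opposite to the window as a whole. No gene was placed on these coordinates, so this region is not assigned to FN1 or to ATIC, which overlaps it in the gene table. The next, which opens at 216238002, ran with the window, at 729 and 597 bases in resistant libraries against 2064 and 1916 in parental libraries. The lines overlapped in the region that opens at 216268821, at 358 and 563 bases in resistant libraries against 1316 and 517 in parental libraries. They overlapped too in the region that opens at 216270879, with 2028 and 2942 bases under peaks in resistant libraries, against 388 and 4925 in parental libraries.

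Receptors and assembly factors of fibronectin and thrombospondin were fitted for 19 of 22 listed genes. Of the 19, 4 fell, 0 rose and 15 did not pass, at 21.1% lower against 3.41% of all genes, and their median log2 fold change was -0.24 against 0.02 over all genes. TGM2, transglutaminase 2, which crosslinks fibronectin, fell to 48.5 and 38.3 TPM in resistant libraries, against 106.9 and 105 TPM in parental libraries (log2 fold change -1.24 ± 0.13, edgeR adjusted p = 0.0103). The integrin chain ITGB8 fell by 1.17 on the log2 scale (edgeR adjusted p = 0.0153) and CD47, the thrombospondin receptor, by 1.03 (edgeR adjusted p = 0.0208). The fourth was SDC3, a syndecan (log2 fold change -0.72, edgeR adjusted p = 0.0454), named after its value was seen. The main fibronectin receptor chains did not pass: ITGA5 had a log2 fold change of -0.66 (edgeR adjusted p = 0.0526) and ITGB1 of -0.89 (edgeR adjusted p = 0.0956). The call of CD47 ended without parental replicate 1 or 2, and that of ITGB8 without parental replicate 2. Such a fit has 1 parental library, assumed to vary like the resistant pair, which alone gives the spread. With all 4 libraries both calls ended by limma on log2(TPM + 1) (limma adjusted p = 0.0532 for CD47 and 0.0646 for ITGB8). DESeq2 kept both (DESeq2 adjusted p = 6.99e-05 and 8.02e-06).

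Paralogs of the 10 genes moved in both directions. Of 38 listed, 20 were fitted, of which 2 rose, 4 fell and 14 did not pass, at 10.0% higher and 20.0% lower against 2.96% and 3.41% of all genes, with a median log2 fold change of -0.67. SPOCK1, a SPARC-family proteoglycan, rose to 30.6 and 23.1 TPM in resistant libraries, against 5.90 and 5.80 TPM in parental libraries (log2 fold change 2.28 ± 0.16, edgeR adjusted p = 0.00262). FSTL1, also of the SPARC family, fell to 103 and 56.5 TPM in resistant libraries, against 256 and 232 TPM in parental libraries (log2 fold change -1.52 ± 0.16, edgeR adjusted p = 0.00918). These relatives of SPARC thus ran in opposite directions. SRPX2, a sushi-repeat protein, rose (log2 fold change 1.30, edgeR adjusted p = 0.0246). The call ended without parental replicate 1 or 2, where the resistant pair alone gives the spread. With all 4 libraries it ended by limma on log2(TPM + 1) with no filter (limma adjusted p = 0.0852) and held with the filter (0.0432).

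BGN, biglycan, the closest relative of decorin, fell to 4.38 and 4.52 TPM in resistant libraries, against 14.5 and 16.1 TPM in parental libraries (log2 fold change -1.72 ± 0.21, edgeR adjusted p = 0.0131). EFEMP1, a fibulin, fell by 1.71 on the log2 scale (edgeR adjusted p = 0.0129), in the direction opposite to FBLN1. THBS2, named after its value was seen, fell by 1.42 on the log2 scale (edgeR adjusted p = 0.00918). THBS3 did not pass (log2 fold change 0.30, edgeR adjusted p = 0.245). TGFBI, the closest relative of periostin, was abundant and did not pass, at a mean of 729 TPM in resistant and 689 TPM in parental libraries (log2 fold change -0.03).

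Of 34 other matrix glycoproteins listed, 25 were fitted. Of the 25, 2 rose, 4 fell and 19 did not pass, at 8% higher and 16.0% lower against 2.96% and 3.41% of all genes. Their median log2 fold change was -0.55. SPP1, osteopontin, was the abundant gene that rose, to 1376 and 1065 TPM in resistant libraries, against 780.3 and 769 TPM in parental libraries (log2 fold change 0.70 ± 0.14, edgeR adjusted p = 0.0443). That call ended without parental replicate 1 or 2, again with the spread taken from the resistant pair alone. With all 4 libraries it ended by limma on log2(TPM + 1) (limma adjusted p = 0.076) and on log2(TPM + 0.1) (0.0815). The filter at a mean log2 CPM of 2 ended the call too (edgeR adjusted p = 0.0506), while DESeq2 kept it (DESeq2 adjusted p = 0.00423). NPNT, nephronectin, rose by 4.01 on the log2 scale (edgeR adjusted p = 0.00198). MATN2, matrilin-2, fell to 3.66 and 3.65 TPM in resistant libraries, against 14.8 and 14.2 TPM in parental libraries (log2 fold change -2.02, edgeR adjusted p = 0.0103). SVEP1 (log2 fold change -3.47, edgeR adjusted p = 0.0129) and CRIM1 (-2.01, 0.0167) fell too, and LTBP4, named after its value was seen, fell by 0.91 (0.0231). IGFBP7, the most abundant of the list in parental libraries, did not pass, at a mean of 2364 TPM in resistant and 3617 TPM in parental libraries (log2 fold change -0.55, edgeR adjusted p = 0.137).

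Among 23 fitted collagens and collagen-modifying enzymes of 25 listed, 8 fell, 0 rose and 15 did not pass. That is 34.8% lower against 3.41% of all genes, with a median log2 fold change of -0.69. The enzymes made up most of these calls, and also most of the fitted genes of the list. PLOD2, a lysyl hydroxylase of collagen crosslinks, fell to 73.0 and 58.4 TPM in resistant libraries, against 282 and 285 TPM in parental libraries (log2 fold change -2.15 ± 0.14, edgeR adjusted p = 0.0026). LOX, lysyl oxidase, fell to 11.4 and 6.11 TPM in resistant libraries, against 34.8 and 36.1 TPM in parental libraries (log2 fold change -1.99 ± 0.23, edgeR adjusted p = 0.0125). LOXL1 fell by 4.94 on the log2 scale (edgeR adjusted p = 0.0043), with 3 and 4 counts in the resistant libraries. The other 5, named after their values were seen, were LOXL2, P4HA1, P4HA2, BMP1 and the collagen COL12A1, with log2 fold changes from -1.80 to -0.81.

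Of 16 fitted genes of the TGF-beta pathway, a known inducer of fibronectin, 2 fell, 0 rose and 14 did not pass. That is 12.5% lower against 3.41% of all genes, with a median log2 fold change of -0.24. TGFB2, a TGF-beta ligand, fell to 1.90 and 1.33 TPM in resistant libraries, against 7.48 and 7.62 TPM in parental libraries (log2 fold change -2.18 ± 0.19, edgeR adjusted p = 0.00602). TGFB1 (0.20), TGFBR1 (-0.14), TGFBR2 (-0.11), SMAD3 (0.11) and SMAD7 (-0.13) had small log2 fold changes and did not pass. Other genes that did not pass had larger ones, among them LTBP1 (-1.83), CTGF (-1.08), SKIL (-0.56) and, in the higher direction, PMEPA1 (0.74). These 5 lists were chosen with earlier results of these data known, and counts of calls in them are not independent evidence of a direction.

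**Figure D5:**
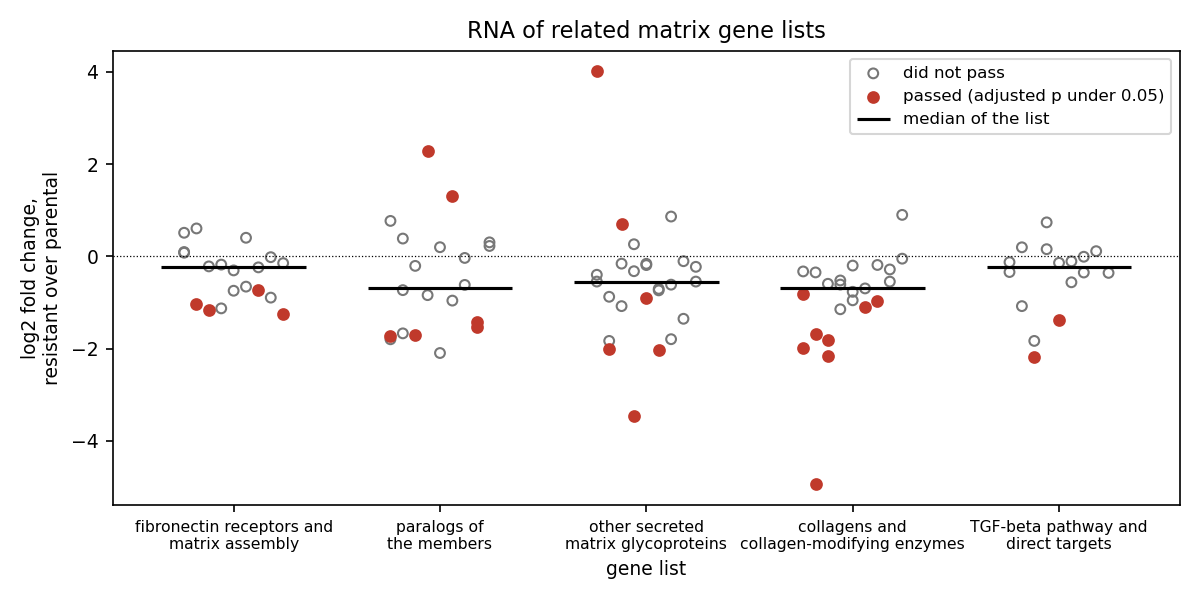
Log2 fold change of the resistant over the parental line (y axis) for each fitted gene of the 5 related lists, filled where edgeR's adjusted p was under 0.05, with the median of each list as a line. Medians lie between -0.69 and -0.24, and the points of NPNT (4.01) and LOXL1 (-4.94) are the farthest from 0.

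Genes whose pattern over the 4 RNA libraries was most like that of FN1 were sought among 5674 genes whose log2 CPM averaged at least 5, by Euclidean distance between mean-centred log2 CPM. The nearest 5 were CXCL6, CLSTN2, IL8, ARRDC3 and COL8A1, at distances of 0.71 to 1.21. CXCL6, a chemokine, stood at 692 and 362 CPM in resistant libraries, against 3716 and 3895 CPM in parental libraries. IL8, another chemokine, stood at 296 and 47.3 CPM in resistant libraries, against 1428 and 1471 CPM in parental libraries, and did not pass with edgeR. With 4 libraries in 2 groups, this likeness rests on the difference between the lines and on the spread of each pair, and IL8 shows a wider resistant pair than FN1.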

How the data were processed

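RNA was measured in 2 libraries of each line and H3K27ac in 2 libraries of each line, and samples were grouped by their titles. Input DNA (4 samples) was not used. Builds hg19 and GRCh38 and the tools RSEM, STAR and DESeq2 1.40.2 appear in the submitters' processing notes, which give no order. For 20114 symbols the authors deposited TPM and estimated counts, per the file headers. Estimated counts were rounded to whole numbers (3.16% were fractional). The deposited peak lists give a position and a score per peak, with no caller or meaning given in the sources used here. Peaks on chromosome 1 end at up to 249240417, and coordinates were read as hg19.

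The genes and all lists were chosen with earlier results of these data known. Genes kept by filterByExpr (12792) were scaled by TMM and tested with edgeR 4.0.16 (R 4.3.3), by its quasi-likelihood test with a term for the line, and p was adjusted over all of them by Benjamini-Hochberg (threshold 0.05). The fit was also run on data simulated with the same spread in both lines. That run is no check of the unequal spread seen here. Named from each list were up to 3 rises and 3 falls among genes that passed. Genes that did not pass were named outside this rule. Results of some genes are not reported here. Alternatives were other scalings (DESeq2 size factors, library totals, FN1 left out), filters, DESeq2 1.42.0, limma 3.58.1 on log2(TPM + 1) and log2(TPM + 0.1), a replicate block, a threshold of 0.01, other peak settings, and leaving out each library. Peaks were handled with Python 3.11.15 and pandas 2.3.3.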

Additional observations from a re-analysis of the deposited data

How the results depend on the processing

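Of the 10 genes, 6 were lower by 2-fold or more under every alternative for RNA but 2, in which POSTN, on 4 counts, made the number 7 (no filter on low counts, and DESeq2). Counts of calls moved more. Over all genes the main fit called 436 lower and 379 higher. DESeq2 called 715 and 577, limma on log2(TPM + 1) 282 and 243, on log2(TPM + 0.1) 243 and 217, and on log2(TPM + 1) with no filter 98 and 41. A threshold of 0.01 left 73 and 24. Library totals in place of TMM gave 373 lower and 531 higher. Leaving out a library gave 264 to 3479 lower and 141 to 3374 higher, with the spread taken from the other line's pair alone.

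Calls among receptors and assembly factors numbered 4. They became 8 with DESeq2, 2 with limma at either pseudocount, 0 with limma and no filter, 0 at 0.01 and 1 to 14 without a library. Calls among paralogs numbered 6, and became 10 with DESeq2, 1 with limma and no filter, 3 at 0.01 and 5 to 14 without a library. Other matrix glycoproteins had 6 calls, and 12 with DESeq2, 4 with limma at either pseudocount, 4 with the filter at a mean log2 CPM of 2, 1 with limma and no filter, 1 at 0.01 and 5 to 20 without a library. Collagens and their enzymes had 8 calls, 11 with DESeq2, 4 with limma and no filter, 3 at 0.01 and 5 to 18 without a library. The TGF-beta list had 2 calls, 3 with library totals, 5 with DESeq2, 1 with limma at either pseudocount, 0 with limma and no filter, 1 at 0.01 and 2 to 12 without a library. The cause of these shifts was not tested.

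A replicate block gave 1020 lower and 860 higher genes and 8, 11, 13, 12 and 5 calls in the 5 lists, in the order above. Deviations from the group means correlated at -0.0464 between libraries of the same replicate number, so the numbers were not read as pairs. The peaks were given no test, paired or not.

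Lost regions of the FN1 window numbered 11 of 41. They were 4 of 25 with the best-scoring 50% of each list and 6 of 41 where peaks had to cover 50% of a region. They were 7 of 26 with peaks merged within 500 bp and 11 of 38 with the same number of best peaks in each list. Over the genome 4.01%, 3.51%, 4.17% and 3.48% of regions were lost under these 4 settings. Without resistant replicate 1 or 2 the window lost 14 of 40 and 14 of 41. Without parental replicate 1 or 2 it lost 24 of 41 and 21 of 38. In each case 1 list stands for its line. Gained regions of the window stayed at 0 under the first 4 settings and were 0 to 1 without a library. Regions with a peak in every list numbered 5, and were 2, 1, 4 and 5 under those 4 settings and 4 to 8 without a library. In the same order of lists left out, the share of all regions lost was 5.53%, 11.3%, 23.5% and 16.9% and of those gained 17.8%, 17.4%, 5.94% and 7.09%. Among named genes of the lists, alternatives kept the call in 224 cases and ended it in 42, and reversed none. The log2 fold changes of the 9 fitted genes moved by less than the replicate spread in 110 cases and by more in 16, with pseudocounts lowering the change of low genes such as MEGF6 (-3.74 on log2(TPM + 1)).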

Other observations

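The ratio of estimated counts to TPM gives a relative effective transcript length in each library, which depends on the isoforms RSEM assigned and on fragment length. It was set to 1 at the median of 11018 well-covered genes. For CCDC80 it was 1.38 and 1.20 in resistant libraries, against 1.5 and 1.55 in parental libraries, a log2 shift of -0.25. That lies below the value of -0.18 under which 5% of those genes fall. For FN1 it was 2.54 and 2.18 in resistant libraries, against 2.50 and 2.49 in parental libraries, so the libraries of the lines overlapped. THBS1, SPARC, TNC and FBLN1 had log2 shifts between -0.08 and 0.04.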
